A study of Mus musculus with 4 samples.

Results

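The nerves that run in the outer coat of the aorta were followed here through 8 genes: the Schwann cell genes Sox10, Cdh19, Ngfr, Mbp and Prx, the axonal gene Nefl, and the noradrenergic genes Th and Dbh. They were chosen by gene name, and every probe that is not a control and carries one of these names was taken, which gave 14 probes among the 56605 probes and 8 of 37074 gene names on the array. Of the 8 genes, 7 passed a filter on dim probes, detection above background on 2 or more of the 4 arrays, and were tested, among 22498 tested genes. Dbh was not tested, because it was above background on 1 array.

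The tissue was abdominal aorta of male mice aged 12 weeks, taken 4 weeks after the vessel had been exposed to CaPO4, a salt used in mice to injure the aortic wall. The compared groups were mice labelled SR-A1-/- and mice labelled wild type, with 2 one-colour arrays each. Both groups had received CaPO4, so no uninjured aorta stands beside them. SR-A1 is the scavenger receptor of macrophages that Msr1 encodes. The labels give neither the allele nor the strain. The series' design text speaks of 2 independent experiments, and no label ties an array to an animal; p-values thus reflect the spread among these 4 arrays alone, which may be technical.

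Sympathetic nerves enter the adventitia of large arteries and release noradrenaline onto smooth muscle. The enzyme TH makes the precursor of dopamine from tyrosine, and DBH turns dopamine into noradrenaline inside vesicles. Most of the messenger RNA of these neurons lies in their cell bodies in ganglia, some of which sit beside the abdominal aorta, while the axons in the vessel wall contain little. Schwann cells wrap the axons: SOX10 sets their lineage, MBP and periaxin (Prx) belong to myelinating Schwann cells, and NGFR (p75NTR) marks immature, non-myelinating and repair Schwann cells. In bulk tissue, fewer cells of a type and less RNA per cell cannot be told apart.

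Th and Dbh each had 2 probes, which differed in how strongly they were detected. Of each gene, the probe that starts nearer the 5′ end of its transcript is printed, 5′ to 3′, as the array carries it. The printed Th probe was above background on no array. The Dbh probe starts at base 1673 of NM_138942 and maps to chr2:27037081-27037140 on the plus strand of mm9, and the Th probe starts at base 1076 of NM_009377 and maps to chr7:150080370-150080581 on the minus strand of mm9, an interval longer than the probe. Whether a probe lies in coding sequence was not annotated here.
Dbh: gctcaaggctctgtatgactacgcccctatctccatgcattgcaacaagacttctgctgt
Th: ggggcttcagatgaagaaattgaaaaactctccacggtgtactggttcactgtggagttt

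The 250 bases before the start of Th and of Dbh are shown because both genes belong to 1 pathway and gave different patterns on the arrays. Of the 8 genes, 4 (Dbh, Prx, Th and Ngfr) had an entry in the RefSeq promoter table of GRCm38.p6. The Th window is chr7:142899996-142900245 on the minus strand and the Dbh window is chr2:27165257-27165506 on the plus strand. Capitals mark the cyclic AMP response element, searched as TGACGTCA, which reads the same on both strands.
Th: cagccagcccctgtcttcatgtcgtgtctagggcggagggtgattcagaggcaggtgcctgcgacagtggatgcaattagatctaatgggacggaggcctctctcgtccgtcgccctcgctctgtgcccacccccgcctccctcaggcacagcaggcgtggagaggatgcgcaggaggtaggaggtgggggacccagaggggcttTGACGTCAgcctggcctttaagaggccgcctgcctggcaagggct
Dbh: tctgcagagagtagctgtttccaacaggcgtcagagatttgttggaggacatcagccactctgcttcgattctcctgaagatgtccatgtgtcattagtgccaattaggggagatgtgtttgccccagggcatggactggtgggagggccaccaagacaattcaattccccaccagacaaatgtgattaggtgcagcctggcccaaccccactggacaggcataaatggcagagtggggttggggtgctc

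The Th window holds the element 1 time and the Dbh window 0 times, and 508 of 32851 windows of the same length hold it (1.55%). The AP-1 motif TGACTCA, searched on both strands, occurs in 1466 windows (4.46%) and 0 times in the windows of Th, Dbh, Prx and Ngfr. A match describes these letters only.

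Overall brightness, as the 75th percentile of the signal, was 245 and 133 for replicates 1 and 2 labelled SR-A1-/-, and 132 and 220 for replicates 1 and 2 labelled wild type, and 57.6% to 62.6% of probes were well above background. Each group thus held 1 array of high and 1 of low signal, and the wild type replicate nearest in signal differed from an SR-A1-/- array by a median of 0.28 to 0.30 log2 units over genes, less than the 0.39 between the SR-A1-/- arrays or the 0.43 between the wild type arrays. Msr1, the deleted gene, went against the labels: its probe at base 3231 of NM_031195 had a signal of 102 and 31.1 on the arrays labelled SR-A1-/-, and of 3.35, not above background, and 51.4 on those labelled wild type. Its other probe, at base 624, gave 86.5 and 50.8 in the group labelled SR-A1-/-, and 1.56, again not above background, and 50.4 in the group labelled wild type. The files do not give the deleted part of the gene. The genotypes are therefore given as labelled. No gene passed an adjusted p of 0.05 in limma, 0% of the 22498 tested. At an unadjusted p under 0.05, 3.84% of tested genes were higher and 2.45% lower in the group labelled SR-A1-/-.

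Among the 7 tested genes, 5 (Mbp, Ngfr, Cdh19, Th and Nefl) read higher on both arrays labelled SR-A1-/- than on either labelled wild type, as did 16.1% of all tested genes. One, Prx, read lower on both, as did 13.7% of all tested genes. Sox10 overlapped between the groups. Before scaling, the raw signals of the brightest Mbp probe, Th, Nefl and Prx overlapped as well, while those of Cdh19 and Ngfr did not. The median difference of the 7 was 0.71 log2 units, against -0.01 over all tested genes. It was 0.37 without wild type replicate 2, 0.17 with normexp background correction and 0.44 with a gene's probes averaged. None of the 7 passed the adjusted test, and 1, Nefl, had an unadjusted p under 0.05. The median of the 7 was 0.67 between the arrays of high signal and 0.05 between those of low signal. All differences are log2 values of the arrays labelled SR-A1-/- minus those labelled wild type, ± limma's standard error (2 arrays in each group), and each level is log2 of the signal relative to the array's 75th percentile.

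**Figure D1:**
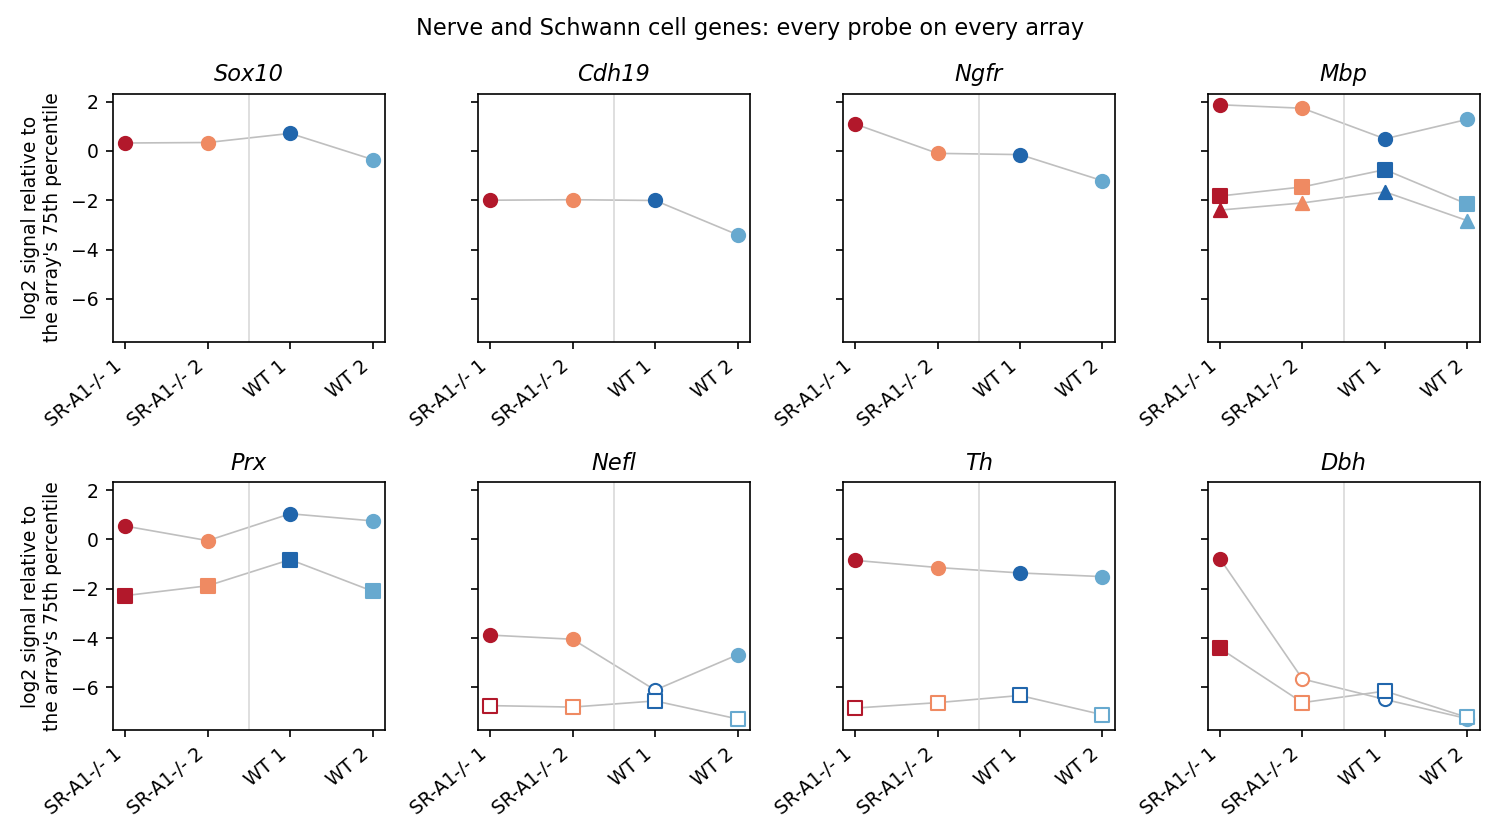
Level of every probe of the 8 genes on each of the 4 arrays, as log2 of the signal relative to the array's 75th percentile; circles are the brightest probe of a gene, squares and triangles its other probes, and open symbols are not above background. Dbh is filled on the array labelled SR-A1-/- replicate 1 and open on the other 3 arrays, and the 3 Mbp probes do not share 1 pattern.

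Sox10, the transcription factor that keeps cells in the Schwann lineage, was read by 1 probe, at base 2653 of NM_011437 (chromosome 15, 78985343 to 78985402, minus strand, mm9). Its signal was 305 and 168 on the arrays labelled SR-A1-/-, and 216 and 172 on those labelled wild type. As levels these were 0.32 and 0.34 in the group labelled SR-A1-/-, and 0.71 and -0.35 in the group labelled wild type. The wild type arrays lay on either side of the SR-A1-/- arrays. The difference was 0.15 ± 0.43 with an adjusted p of 1 in limma. It turned to -0.38 without wild type replicate 2 and was 0.68 without wild type replicate 1.

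Cdh19, a cadherin of Schwann cell precursors and non-myelinating Schwann cells, was read at base 2920 of NM_001081386 (chromosome 1, 112785846 to 112785905, minus strand, mm9). Its signal was 61.0 and 33.5 on the arrays labelled SR-A1-/-, and 32.7 and 20.9 on those labelled wild type. After scaling, its level was -2.0 and -1.98 in the group labelled SR-A1-/-, and -2.01 and -3.40 in the group labelled wild type. Only wild type replicate 2 stood below the other 3 arrays, which lay within 0.03 log2 units of each other. The difference of 0.71 ± 0.52 (adjusted p = 1, limma) was 0.02 without that array.

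Ngfr, the neurotrophin receptor p75NTR, was read at base 3270 of NM_033217 (chromosome 11, 95430211 to 95430270, minus strand, mm9). Its signal was 519 and 123 on the arrays labelled SR-A1-/-, and 119 and 94.7 on those labelled wild type. The levels were 1.09 and -0.10 in the group labelled SR-A1-/-, and -0.15 and -1.21 in the group labelled wild type. The array labelled SR-A1-/- replicate 1 was the highest, wild type replicate 2 was the lowest, and the other two arrays differed by little. The difference was 1.17 ± 0.58, a 2.26-fold ratio, with an adjusted p of 0.917 in limma. It was 2.30 between the arrays of high signal and 0.05 between those of low signal, and 0.58 without SR-A1-/- replicate 1.

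Mbp, the myelin basic protein gene, had 3 probes on chromosome 18, and they did not agree. The brightest, at base 4653 of NM_001025245 (82727929 to 82727988, plus strand, mm9), had a signal of 896 and 438 on the arrays labelled SR-A1-/-, and of 185 and 534 on those labelled wild type. Its levels were 1.87 and 1.73 in the group labelled SR-A1-/-, and 0.49 and 1.28 in the group labelled wild type, so that the groups did not overlap. The difference was 0.91 ± 0.37, a 1.88-fold ratio, with an unadjusted p of 0.0582 and an adjusted p of 0.814 in limma.

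The other Mbp probes belong to NM_010777. The probe at base 1533 (82754032 to 82754091) read -1.83 and -1.46 on the arrays labelled SR-A1-/-, and -0.76 and -2.16 on those labelled wild type, a difference of -0.18 ± 0.53 (adjusted p = 1, limma over all probes). The probe at base 916, whose interval runs from 82742266 to 82744570, read -2.40 and -2.11 in the group labelled SR-A1-/-, and -1.66 and -2.83 in the group labelled wild type, a difference of -0.01 ± 0.47. At both of these probes wild type replicate 1 was the highest array and wild type replicate 2 the lowest, whereas at the brightest probe wild type replicate 1 was the lowest. The brightest probe lies 14337 and 26103 bases upstream of the other probes. As background, the locus also makes golli transcripts, which in mouse are found in immune cells as well as in glia, and the files do not say which transcripts a probe reads. Averaged over the 3 probes, the difference was 0.24.

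Prx encodes periaxin, a scaffold protein of myelinating Schwann cells. Its brighter probe, at base 5198 of NM_019412 (chromosome 7, 28304999 to 28305058, plus strand, mm9), had a signal of 355 and 128 on the arrays labelled SR-A1-/-, and of 272 and 370 on those labelled wild type. Relative to the 75th percentile these were 0.54 and -0.05 in the group labelled SR-A1-/-, and 1.04 and 0.75 in the group labelled wild type. Both SR-A1-/- arrays lay below both wild type arrays only after scaling, since the raw signal overlapped. The difference was -0.65 ± 0.34 (ratio 0.637, adjusted p = 0.948 in limma), -0.21 between the arrays of high signal and -1.09 between those of low signal. The second probe, at base 4532 (28304333 to 28304392), gave -0.62 ± 0.50 with the groups overlapping, at -2.28 and -1.88 in the group labelled SR-A1-/-, and -0.82 and -2.10 in the group labelled wild type.

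Nefl, the light chain of neurofilaments and so a component of axons, was dim. Its probe at base 1931 of NM_010910 (chromosome 14, 68705725 to 68705784, plus strand, mm9) had a signal of 16.7 and 7.99 on the arrays labelled SR-A1-/-, and of 1.91 and 8.58 on those labelled wild type, and the value of 1.91 was not above background. The levels were -3.88 and -4.05 in the group labelled SR-A1-/-, and -6.11 and -4.68 in the group labelled wild type. The difference of 1.43 ± 0.53 had an unadjusted p of 0.0440 and an adjusted p of 0.769 in limma. With wild type replicate 1 raised to the lowest level called above background on that array, it was 0.51, and with normexp background correction it was 0.09. A second probe, at base 3093 of ENSMUST00000022639, was not above background on any array, with signals of 2.30 and 1.19 on the arrays labelled SR-A1-/-, and of 1.41 and 1.42 on those labelled wild type.

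Th, the rate-limiting enzyme of catecholamine synthesis, was above background on all 4 arrays at 1 of its 2 probes. The probe at base 1675 of NM_009377 (chromosome 7, 150078703 to 150078762, minus strand, mm9) had a signal of 136 and 60.2 on the arrays labelled SR-A1-/-, and of 51.5 and 77.0 on those labelled wild type. Its levels were -0.85 and -1.14 in the group labelled SR-A1-/-, and -1.36 and -1.51 in the group labelled wild type, without overlap and with the narrowest span of the 7 tested genes, 0.67. The difference was 0.44 ± 0.29, a 1.36-fold ratio, with an adjusted p of 1 in limma. The probe printed above, at base 1076, was not above background on any array, with signals of 2.13 and 1.34 on the arrays labelled SR-A1-/-, and of 1.64 and 1.59 on those labelled wild type. The 2 probes thus disagree on whether Th was detected at all.

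Dbh, which makes noradrenaline, was above background on the array labelled SR-A1-/- replicate 1 and on no other. At base 2222 of NM_138942 (chromosome 2, 27038665 to 27038724, plus strand, mm9) the signal was 142 and 2.63 on the arrays labelled SR-A1-/-, and 1.47 and 1.42 on those labelled wild type. The probe at base 1673 gave 11.5 and 1.35 in the group labelled SR-A1-/-, and 1.86 and 1.47 in the group labelled wild type. Both probes therefore pick out the same array. At the brighter probe that array was at least 14.3-fold above the wild type group and at least 13.1-fold above the other SR-A1-/- array, each bound set at the lowest level that an array called above background. The mean of the group labelled SR-A1-/-, -3.22, was at least 2.64-fold above wild type, where the measured mean was -6.88, and this bound rests on replicate 1. At the dimmer probe the same array was at least 1.15-fold above the wild type group. Wild type replicate 2, an array of similar overall signal, was not above background at either probe. Over all gene names, 1534 were above background on exactly 1 array, 534 of them (34.8%) on SR-A1-/- replicate 1 and 515 on wild type replicate 2.

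**Figure D2:**
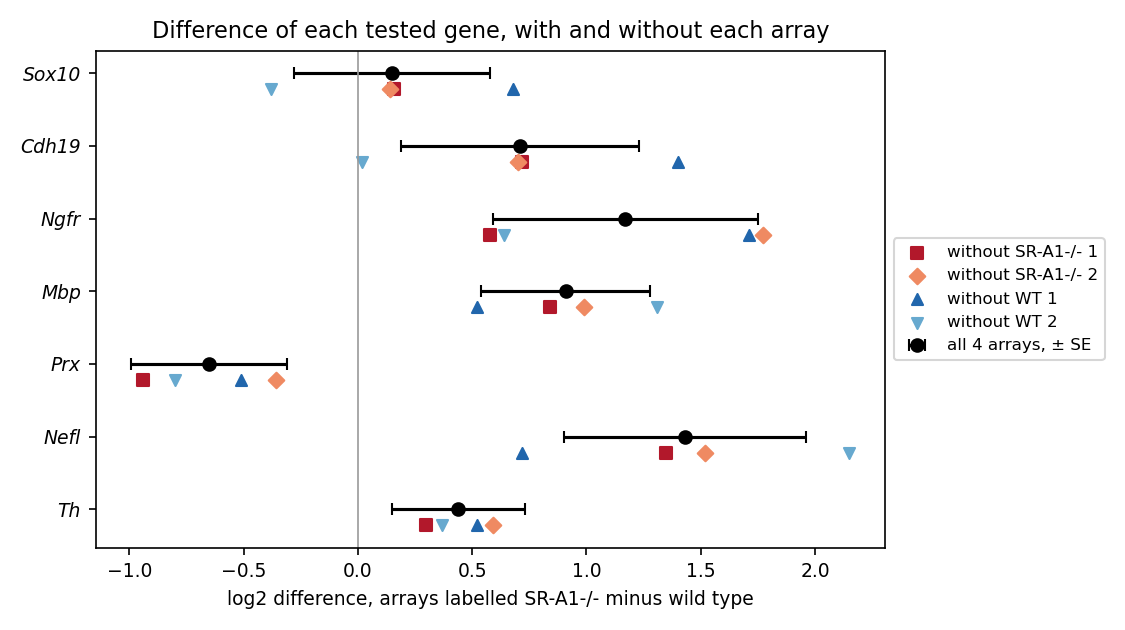
Log2 difference, arrays labelled SR-A1-/- minus arrays labelled wild type, of the 7 tested genes; black points and bars are all 4 arrays ± the limma standard error and coloured symbols leave out 1 array each. Sox10 crosses 0 without wild type replicate 2, where Cdh19 is at 0.02, and the other 5 genes stay on 1 side of 0.

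Of 17 other myelin genes of Schwann cells, 13 were tested, 0 passed the adjusted test and 0 had an unadjusted p under 0.05, and their median difference was 0.08, or -0.17 without wild type replicate 2 and 0.40 without wild type replicate 1. By smallest p, the first gene was Gldn, the nodal protein gliomedin, at -0.45 ± 0.30 (adjusted p = 1). Dhh, a Schwann cell ligand for the nerve sheath, followed at 0.48 ± 0.45, and Egr2, the regulator of myelination, at -1.10 ± 1.62. Pmp2, Ugt8a, Fa2h and Cldn19 were above background on no array.

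Of 15 genes of the Schwann lineage and of non-myelinating Schwann cells, 12 were tested. Of these 3 were higher and 3 lower without overlap, against 16.1% and 13.7% of all tested genes. The median was 0.14, and ran from -0.14 without wild type replicate 2 to 0.34 without wild type replicate 1. Ncam1, an adhesion molecule that muscle and other cells also make, read 3.97 and 4.08 on the arrays labelled SR-A1-/-, and 4.76 and 5.36 on those labelled wild type, a difference of -1.03 ± 0.33 with an adjusted p of 0.697. Fabp7, a fatty acid binding protein of glia, gave -1.70 ± 0.82, and Gfra3, the artemin receptor, 0.75 ± 0.40. Of 8 repair Schwann cell genes 5 were tested, with a median of -0.16 that was -0.26 without SR-A1-/- replicate 1 and 0.14, 0.22 and 0.25 without SR-A1-/- replicate 2, wild type replicate 1 and wild type replicate 2. Gap43, a growth protein of axons and denervated Schwann cells, gave 0.66 ± 0.34, the neurotrophin gene Bdnf -0.80 ± 0.80 and Btc, which encodes betacellulin, 0.20 ± 0.34. None of these passed the adjusted test.

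The other noradrenergic neuron genes were most often highest on the array that showed Dbh. Of 19, 12 were tested, and 9 of the 12 were highest on the array labelled SR-A1-/- replicate 1, where 23.4% of all tested genes had their highest value. Some of these leads were narrow. Slc6a2 read -1.08 and -1.97 on the arrays labelled SR-A1-/-, and -1.43 and -1.19 on those labelled wild type (-0.22 ± 0.40). Slc18a2 read -2.61 and -3.08 on the arrays labelled SR-A1-/-, and -2.63 and -2.78 on those labelled wild type (-0.14 ± 0.31). Over all 19, a gene was counted as above background where any of its probes was. On that count 14 and 13 were above background on the arrays labelled SR-A1-/-, against 9 and 11 on those labelled wild type. A share of all genes on the same count is not given here, and the shares that follow are of single probes. Of all probes, 62.6% and 60% were well above background on the arrays labelled SR-A1-/-, against 57.6% and 61.5% on those labelled wild type. The median difference of the 12 was 0.25, or 0.06 without SR-A1-/- replicate 1, 0.69 without SR-A1-/- replicate 2 and 0.54 without wild type replicate 2. Without overlap, 3 were higher and 0 lower, against 16.1% and 13.7% of all tested genes, and Chga is one of the 3. Chga, a protein of catecholamine vesicles, read -3.80 and -4.10 on the arrays labelled SR-A1-/-, and -6.54 and -5.92 on those labelled wild type, where it was not above background. That is at least 1.60-fold higher, with an adjusted p of 0.254 in limma, and Chga entered the test only through the group in which it was high. Gata3, a regulator of sympathetic neurons that T cells also use, read -0.09 and -0.43 on the arrays labelled SR-A1-/-, and -1.02 and -1.76 on those labelled wild type, 1.13 ± 0.38 (adjusted p = 0.702).

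Npy, the peptide released with noradrenaline, read -2.76 and -3.48 on the arrays labelled SR-A1-/-, and -6.13 and -3.43 on those labelled wild type, which overlap (1.66 ± 0.93, adjusted p = 0.987). Among the genes above background on 1 array, Chgb, a vesicle protein, had a signal of 40.1 and 3.24 on the arrays labelled SR-A1-/-, and of 4.00 and 6.80 on those labelled wild type. Phox2a, a transcription factor of noradrenergic neurons, had 26.8 and 1.90 on the arrays labelled SR-A1-/-, and 1.64 and 6.79 on those labelled wild type. Both were seen, like Dbh, on SR-A1-/- replicate 1, while Hand2 was above background on SR-A1-/- replicate 2 alone. Isl1 and Slc18a1 were above background on no array. Slc6a2, Slc18a2, Chgb, Phox2a, Hand2, Isl1 and Slc18a1 were named after their values were seen.

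**Figure D3:**
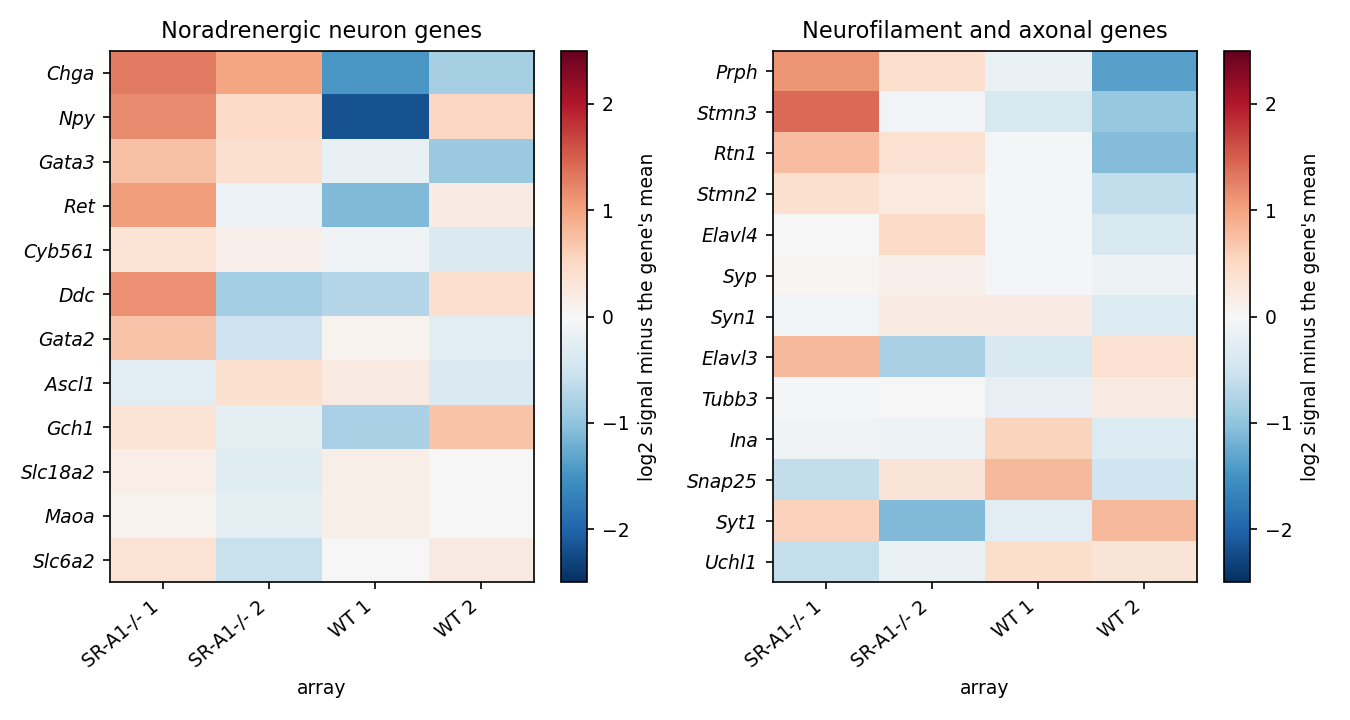
Levels of the 12 tested noradrenergic genes and the 13 tested neurofilament and axonal genes on each array, as log2 signal minus the gene's mean over the 4 arrays, with red above and blue below that mean. Of the 12 noradrenergic genes, 9 are highest on the array labelled SR-A1-/- replicate 1, and of the 13 axonal genes 8 are lowest on wild type replicate 2.

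Of 15 neurofilament and axonal genes, 13 were tested, and 6 were higher and 1 lower without overlap, as were 16.1% and 13.7% of all tested genes. The median was 0.14, and 0.19 to 0.35 with an array left out. Prph, which encodes the filament protein peripherin of autonomic and sensory neurons, read -2.78 and -3.46 on the arrays labelled SR-A1-/-, and -4.05 and -5.25 on those labelled wild type, the last not above background. Its difference was 1.53 ± 0.52 with an adjusted p of 0.704. Rtn1, a reticulon of neuroendocrine cells, gave 1.15 ± 0.44, and Uchl1, a deubiquitinating enzyme abundant in neurons, gave -0.74 ± 0.31. Nefm, the medium neurofilament chain, was above background on no array. Nefh, the heavy chain, was above background on SR-A1-/- replicate 1 alone, with a signal of 14.1, against 1.20 on the other array labelled SR-A1-/- and 1.42 and 1.41 on those labelled wild type.

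Of 10 sensory neuron genes 4 to 6 were above background on an array, and of 5 cholinergic and nitrergic genes 2 or 3. Of the 10 sensory genes 5 were tested, with a median of -0.51 (0.02 without SR-A1-/- replicate 2, and -0.01 with normexp background correction). The sodium channel gene Scn10a gave -0.51 ± 0.29, the ATP receptor gene P2rx3 -0.58 ± 0.33 and the neurotrophin receptor gene Ntrk2 -0.81 ± 0.70. The neuropeptide genes Calcb and Tac1 were above background on no array. Of the 5 cholinergic and nitrergic genes 2 were tested, Chat, which makes acetylcholine, at 0.37 ± 0.47, and its vesicular transporter Slc18a3 at 0.22 ± 0.37, with a median of 0.30 that was 0.75 without SR-A1-/- replicate 1, -0.15 without SR-A1-/- replicate 2, 0.50 without wild type replicate 1 and 0.09 without wild type replicate 2. No gene of these lists had an unadjusted p under 0.05.

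Ligands that draw nerves to vessels and the receptors that answer noradrenaline were measured alongside. Of 11 nerve growth and guidance genes 10 were tested, and 2 were higher and 2, Ntf5 among them, lower without overlap, against 16.1% and 13.7% of all tested genes. The median was -0.20, or 0.01 without SR-A1-/- replicate 1, -0.07 without SR-A1-/- replicate 2 and 0.06 without wild type replicate 1. Ntf5, which encodes neurotrophin-4, read -6.36 and -6.25 on the arrays labelled SR-A1-/-, where it was not above background, and -3.98 and -4.42 on those labelled wild type. It was at least 1.47-fold higher in wild type, with an adjusted p of 0.230, and entered the test only through that group. Ednrb, the endothelin B receptor, gave 0.87 ± 0.41, and Ntf3, the neurotrophin-3 gene, -0.70 ± 0.39.

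All 9 adrenergic receptor genes were tested, and 1 was higher and 3 lower without overlap, against 16.1% and 13.7% of all tested genes. The median of 0.19 has no settled sign: it was -0.17 with normexp background correction, and -0.51, -0.34 and -0.24 without SR-A1-/- replicate 1, wild type replicate 1 and wild type replicate 2. Adra1a, a smooth muscle receptor that drives contraction, read -4.32 and -5.15 on the arrays labelled SR-A1-/-, and -3.30 and -2.71 on those labelled wild type, and the value of -5.15 was not above background. Its difference was -1.72 ± 0.42 with an unadjusted p of 0.00973 and an adjusted p of 0.507. Adra1b, of the same class, read -2.35 and -2.47 in the group labelled SR-A1-/-, and -1.22 and -1.48 in the group labelled wild type, -1.06 ± 0.29 (adjusted p = 0.582). Contractile smooth muscle markers were read beside these receptors. All 8 were above background on all arrays and highest on wild type replicate 1, and none passed the adjusted test. In the group labelled SR-A1-/- 5 of the 8 were lower without overlap, against 13.7% of all tested genes, and their median was -0.56, or -0.36 without wild type replicate 1. Their part in the receptor values was not tested.

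Likeness of pattern was measured as the root mean square difference between genes centred on their mean over the 4 arrays, among 20067 genes above background on every array. With only 4 arrays, such matches describe these arrays. Nearest to Mbp were Fgd3 (0.022), BC028789 (0.0503) and Arl5c (0.0525). Ngfr was matched by Foxd2os (0.0425), Gcnt1 (0.088) and Degs2 (0.0896). For Prx they were 4833432E10Rik (0.0361), Prkaa2 (0.0485) and Polr1a (0.0532). For Sox10 the nearest was Msx3 (0.0282), followed by an unnamed transcript and an unnamed intergenic interval, and for Cdh19 an unnamed interval (0.0559), Fam174b (0.0661) and Sfrp1 (0.0692). No other gene of the 8 was among these neighbours. Th, which spanned less than 1 log2 unit, and Nefl and Dbh, which were below background on some array, were given no neighbours.

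The arrays also differed in markers of tissues that surround the aorta, given here as summed levels in multiples of the array's 75th percentile. No gene of any marker list passed the adjusted test, and at an unadjusted p under 0.05 the skeletal muscle list had 1 of 10 genes higher and 5 lower, and the macrophage list 4 of 8 higher and 0 lower, against 3.84% and 2.45% of all tested genes. White adipocyte markers, led by Fabp4 and Cfd, summed to 629 and 28.8 on the arrays labelled SR-A1-/-, against 397 and 685 on those labelled wild type, and 7 of 8 were lowest on SR-A1-/- replicate 2. Brown adipocyte markers, led by Cox8b and Cox7a1, summed to 167 and 7.80 on the arrays labelled SR-A1-/-, against 40.7 and 511 on those labelled wild type, and all 8 were highest on wild type replicate 2. Skeletal muscle markers, led by Myh4 and Tnni2, summed to 156 and 267 in the group labelled SR-A1-/-, and to 1370 and 409 in the group labelled wild type. Fat and muscle thus varied more between arrays than any of the tested nerve genes. On SR-A1-/- replicate 2, the array of the low fat sum, Sox10, Cdh19, the brightest Mbp probe and Nefl lay within 0.17 log2 units of replicate 1, while Ngfr, Prx and Th lay 1.19, 0.58 and 0.29 below it and Dbh was not above background. The part of fat content in these values was not tested.

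Contractile smooth muscle markers, led by Tagln and Acta2, summed to 1080 and 1310 in the group labelled SR-A1-/-, and to 1890 and 1370 in the group labelled wild type. Adventitial fibroblast markers, led by Dcn and Col1a1, summed to 890 and 1390 in the group labelled SR-A1-/-, and to 1320 and 830 in the group labelled wild type, and 6 of 7 were lowest on wild type replicate 2, the array on which Sox10, Cdh19, Ngfr and Th were also lowest. Perineurial markers, led by Itgb4 and Slc2a1, summed to 13.1 and 13.9 in the group labelled SR-A1-/-, and to 15.4 and 9.12 in the group labelled wild type. The sum was again lowest on wild type replicate 2, as were 3 of the 4 genes. Slc2a1 was instead highest there, at 1.98 and 1.34 in the group labelled SR-A1-/-, and 1.27 and 2.44 in the group labelled wild type. Whether the share of outer coat in a sample moved these genes was not tested.

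Macrophage markers, led by Lyz2 and Itgam, summed to 263 and 270 on the arrays labelled SR-A1-/-, against 162 and 337 on those labelled wild type. They were lowest on wild type replicate 1 for 6 of 8 genes, the array on which the brightest Mbp probe was also lowest, and their part in the Mbp value was not tested. Markers of lymph node and B cells, led by Ccl21a and Cr2, summed to 36.8 and 57.6 in the group labelled SR-A1-/-, and to 56.1 and 23.8 in the group labelled wild type.

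Other sources of the same genes were looked for by their own markers. Adrenal cortex and chromaffin markers summed to 0.674 and 0.624 in the group labelled SR-A1-/-, and to 0.575 and 0.474 in the group labelled wild type, with 5 of 8 tested. The 2 brightest, Cyp21a1 and Star, were above background on all 4 arrays and overlapped between the groups. Their differences were 0.23 ± 0.35 and -0.05 ± 0.32. Mc2r, above background on SR-A1-/- replicate 1 and wild type replicate 2 only, gave -0.58 ± 0.63, also with overlap. Cyp11a1, Cyp11b2 and Hsd3b1 were above background on no array, while Cyp11b1 was above background on both arrays labelled SR-A1-/- and on neither labelled wild type. That is at least 2.43-fold higher (adjusted p = 0.718, limma), and Cyp11b1 entered the test only through the group in which it was high. Its levels were -2.64 and -4.05 in the group labelled SR-A1-/-, and -4.84 and -7.25 in the group labelled wild type. Pnmt, which makes adrenaline in chromaffin cells, read -2.80 and -2.43 in the group labelled SR-A1-/-, and -2.68 and -3.42 in the group labelled wild type. Pnmt was highest on SR-A1-/- replicate 2, and Cyp11b1 on the array that showed Dbh. The part of adrenal tissue in the Dbh value was not tested.

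Markers of oligodendrocytes and other central glia summed to 0.395 and 0.416 in the group labelled SR-A1-/-, and to 0.473 and 0.468 in the group labelled wild type, with Mog and Aqp4 tested and Mobp, Opalin, Olig2 and Nkx2-2 above background on no array. Melanocyte markers, of interest because melanocytes also use Sox10, summed to 2.30 and 5.68 in the group labelled SR-A1-/-, and to 0.804 and 1.16 in the group labelled wild type. Most of that sum was Mlana, at 1.06 and 2.44 in the group labelled SR-A1-/-, and -0.82 and -0.19 in the group labelled wild type (2.26 ± 0.55, adjusted p = 0.509). Tyr and Dct gave 0.54 ± 0.37 and -0.46 ± 0.31, and Tyrp1 was above background on no array. Pmel was not tested, being above background on SR-A1-/- replicate 1 alone, the array that showed Dbh.

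**Figure D4:**
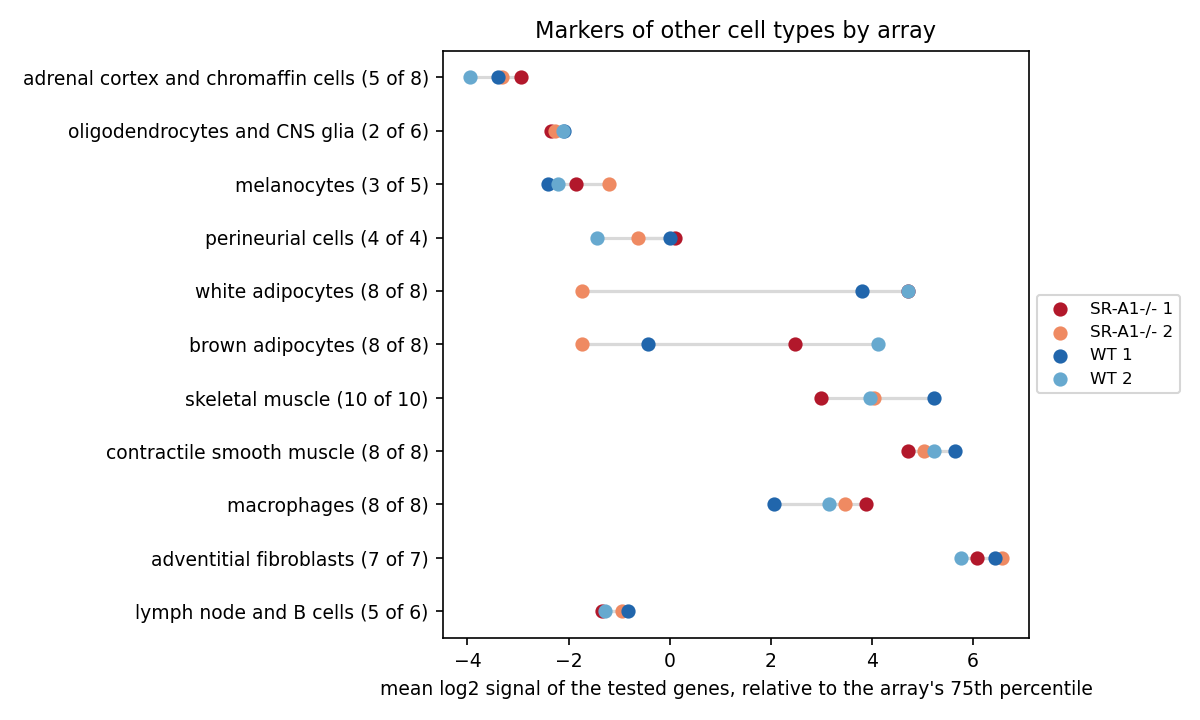
Mean level of the tested marker genes of 11 other cell types and tissues on each array, as log2 signal relative to the array's 75th percentile, with the number tested of the number listed. White and brown adipocyte markers spread over more than 5 log2 units between arrays, while adrenal, central glial and lymphoid markers stay within narrower ranges; where points coincide, the one drawn last covers the other.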

How the data were processed

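The arrays were single-colour (Cy3) Agilent mouse arrays. The signal used is an intensity that Feature Extraction 12.0.3.1 had background-subtracted, per the file headers, which place probes on mm9, while the submitters' processing notes name version 10.7 and limma. The authors deposited a value table on a log2 scale, used as an alternative (56605 of 56732 entries matched). Spot flags of 0 or 1 are scores per the file headers.

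From these, log2 of the processed signal minus the array's 75th percentile was computed, outlier spots (102 and 83 on the arrays labelled SR-A1-/-, 93 and 74 on those labelled wild type) were left out, repeated spots averaged, and probes well above background on at least 2 arrays kept. The brightest probe stood for a gene. Groups were compared with limma 3.58.1 (lmFit, eBayes, two-sided, Benjamini-Hochberg) in R 4.3.3 (package data.table, version 1.17.8). Python 3.11.15 and matplotlib 3.10.9 made the figures. A bound against a group below background took the lowest signal above background on each array. Named genes were the 8 genes, the 3 genes of smallest p in each list, the 2 brightest of each marker list and the nearest neighbours in pattern. Values of some list genes are not reported here. The 8 genes and all lists were chosen with earlier results of these data known. The procedure was tested on simulated data. Precision is limited by the number of arrays.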

Additional observations from a re-analysis of the deposited data

How the results depend on the processing

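The member genes were refitted under 13 alternatives that kept all 4 arrays and 4 that left out an array. None of the 7 tested genes passed an adjusted p of 0.05 in any of them, the lowest being 0.0569 for Nefl without wild type replicate 2. Apart from Sox10, all kept their direction; Sox10 was -0.38 without wild type replicate 2 and -0.37 between the arrays of low signal. Leaving out each array gave 0.52 to 1.31 for Mbp, -0.38 to 0.68 for Sox10, -0.94 to -0.36 for Prx, 0.02 to 1.40 for Cdh19, 0.58 to 1.77 for Ngfr, 0.30 to 0.59 for Th and 0.72 to 2.15 for Nefl. With the filter on all 4 arrays Nefl was not tested.

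Over all genes, 0 passed in the main fit (1416 at an unadjusted p under 0.05), against 8 with quantile normalisation, 7 with median scaling, 8 with cyclic loess, 8 without a filter, 5 with an intensity trend, 2 with array weights and 8 with the deposited values; the cause was not tested. Leaving out each array gave 0 to 371, the wild type arrays giving 260 (without replicate 1) and 371 (without replicate 2); there the lone array is assumed to vary like the other group. No paired analysis was possible because the labels number the 2 groups differently and so pair no arrays. Signal level as a block gave 0 calls.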

Other observations

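The following 4 list genes, picked after their values were seen, were highest on wild type replicate 2; they are no theme of their lists, since of the 5 tested repair genes 2 were highest on that array and Gap43 was lowest there. Egr2, which immune cells also induce, read 0.81 and 1.03 on the arrays labelled SR-A1-/-, and -0.48 and 4.53 on those labelled wild type. Jun, the regulator of the repair state and an immediate early gene in many cells, read 5.69 and 5.38 on the arrays labelled SR-A1-/-, and 4.51 and 7.25 on those labelled wild type. Olig1 was above background on that array alone, with a signal of 7.23 and 1.41 on the arrays labelled SR-A1-/-, and of 1.74 and 39.3 on those labelled wild type. S100b, a glial calcium-binding protein that adipocytes also make, read 1.95 and 1.91 on the arrays labelled SR-A1-/-, and 0.78 and 3.52 on those labelled wild type. Brown adipocyte markers were highest on the same array.

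Adrb3, the β3 receptor of adipocytes, read 3.55 and -6.18 on the arrays labelled SR-A1-/-, and 2.41 and 4.36 on those labelled wild type. The value of -6.18, on SR-A1-/- replicate 2, was not above background, and white adipocyte markers were low on that array too.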
